A study of Homo sapiens with 17 samples.

Results

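The 77 mRNAs described here encode the proteins of the cytoplasmic ribosome. They were taken by gene symbol from a table of 25548 symbols: a symbol qualified if it was RPL or RPS followed by a number with or without a final A or X, or if it was RPLP0, RPLP1, RPLP2 or RPSA. The rule gave 46 proteins of the large subunit and 31 of the small subunit and used no measured value. All 77 had a mean of at least 1 FPKM (a read density corrected for gene length and library size), none was listed at 0 in any library, and all entered the tests among 12015 genes above that level. The cells were Jurkat, an established line of T cell acute lymphoblastic leukaemia, and they were exposed to ILT3.Fc, a soluble protein that fuses the outer domains of ILT3, an inhibitory receptor, to an antibody Fc fragment. Polyadenylated RNA was sequenced from 17 libraries. ILT3.Fc was given at 0, 12.5 or 25 µg/ml for 6, 12 or 24 h, which makes 9 groups of dose and time with 2 libraries each, except that untreated cells at 12 h had 1. The controls received no ILT3.Fc, every group came from the same cell line in the same medium, and no other agent or allele is named. The labels call the libraries of a group duplicates and leave unstated whether each came from its own culture. The p-values therefore reflect the spread among these libraries alone, and that spread may be technical.

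Each ribosome carries 1 copy of most of these proteins, and cells make them in matched amounts. Their mRNAs are the best known members of the terminal oligopyrimidine (TOP) class, which begin with a cytosine followed by an unbroken run of pyrimidines. The kinase complex mTORC1 controls how strongly TOP mRNAs are translated, through proteins such as LARP1 that bind the mRNA start. The level of the mRNAs was measured here, and their translation was not.

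The starts of several members are shown because they carry the pyrimidine run that defines the class. Each line gives 10 bases before and 20 bases from the annotated transcript start, 5′ to 3′ on the gene's strand, from RefSeq on GRCh38.p14. Capitals mark the initial C and the pyrimidine run. The last line, RPS29, shows a start without such a run.
RPS6, chr9:19380217-19380246, minus strand: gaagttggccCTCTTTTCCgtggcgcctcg
RPL13A, chr19:49487598-49487627, plus strand: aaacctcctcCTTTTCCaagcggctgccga
RPL12, chr9:127451387-127451416, minus strand: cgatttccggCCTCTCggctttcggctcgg
RPL18, chr19:48619159-48619188, minus strand: agcccgttctCTCTTTCCggacctggccga
RPL28, chr19:55385922-55385951, plus strand: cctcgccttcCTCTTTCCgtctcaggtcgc
RPL35, chr9:124861938-124861967, minus strand: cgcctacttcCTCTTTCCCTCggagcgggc
RPL22, chr1:6199576-6199605, minus strand: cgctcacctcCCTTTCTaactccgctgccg
RPS12, chr6:132814559-132814588, plus strand: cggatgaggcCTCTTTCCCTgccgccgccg
RPSA, chr3:39406710-39406739, plus strand: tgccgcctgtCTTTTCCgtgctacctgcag
RPS29, chr14:49598691-49598720, minus strand: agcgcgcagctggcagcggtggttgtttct

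The motif was written as C at the start followed by at least 4 letters that are each C or T, read on the transcript strand only, and a gene counted if any of its listed starts held it. Of the 77 members, 62 matched the table of starts by symbol, and 46 of these (74.2%) held the motif. It was found in 28 of 38 large-subunit and 18 of 24 small-subunit genes, against 1404 of all 27305 symbols in that table (5.14%). The median run among members that held it was 8 bases and the longest was 19. The 15 members that were not matched included RPL5, RPL7, RPL8, RPL23, RPL23A, RPL30, RPL37, RPS2, RPS15A and RPS20. A match describes letters at an annotated start, which may not be the start used in Jurkat cells.

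The ribosomal protein mRNAs were among the most abundant in these cells. Together they made up 12.2% to 13.7% of the summed FPKM of a library. The large-subunit mRNAs took 6.69% to 7.56% and the small-subunit mRNAs 5.52% to 6.17%. The ratio of the large to the small sum lay between 1.198 and 1.23 in the 17 libraries.

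Within the large subunit, mean FPKM over all libraries spanned a wide range. RPL37A was highest, at 2670 FPKM (range 2514 to 3294), followed by RPL11 at 1836, RPL19 at 1811, RPLP1 at 1720 and RPL27 at 1705. RPL11 forms a particle with RPL5 and the 5S ribosomal RNA that also binds the p53 regulator MDM2, and RPL5 was at 569.9 FPKM. The stalk proteins RPLP0, RPLP1 and RPLP2, which recruit translation factors, were at 1012, 1720 and 1441 FPKM. The lowest large-subunit members were RPL36A at 9.84 FPKM, RPL9 at 42.2 and RPL27A at 86.2.

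Small-subunit mRNAs spanned a narrower range. RPS6, the ribosomal protein phosphorylated by S6 kinase downstream of mTORC1, was highest at 2535 FPKM (range 2325 to 2869), followed by RPS21 at 1643, RPS29 at 1625 and RPS14 at 1468. The lowest were RPS28 at 141.3 FPKM, RPS26 at 145.7 and RPS23 at 241.1. The ranges of RPS28 and RPS26 overlapped, as did those of most neighbours in the order, so ranks between neighbours are not resolved.

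**Figure D1:**
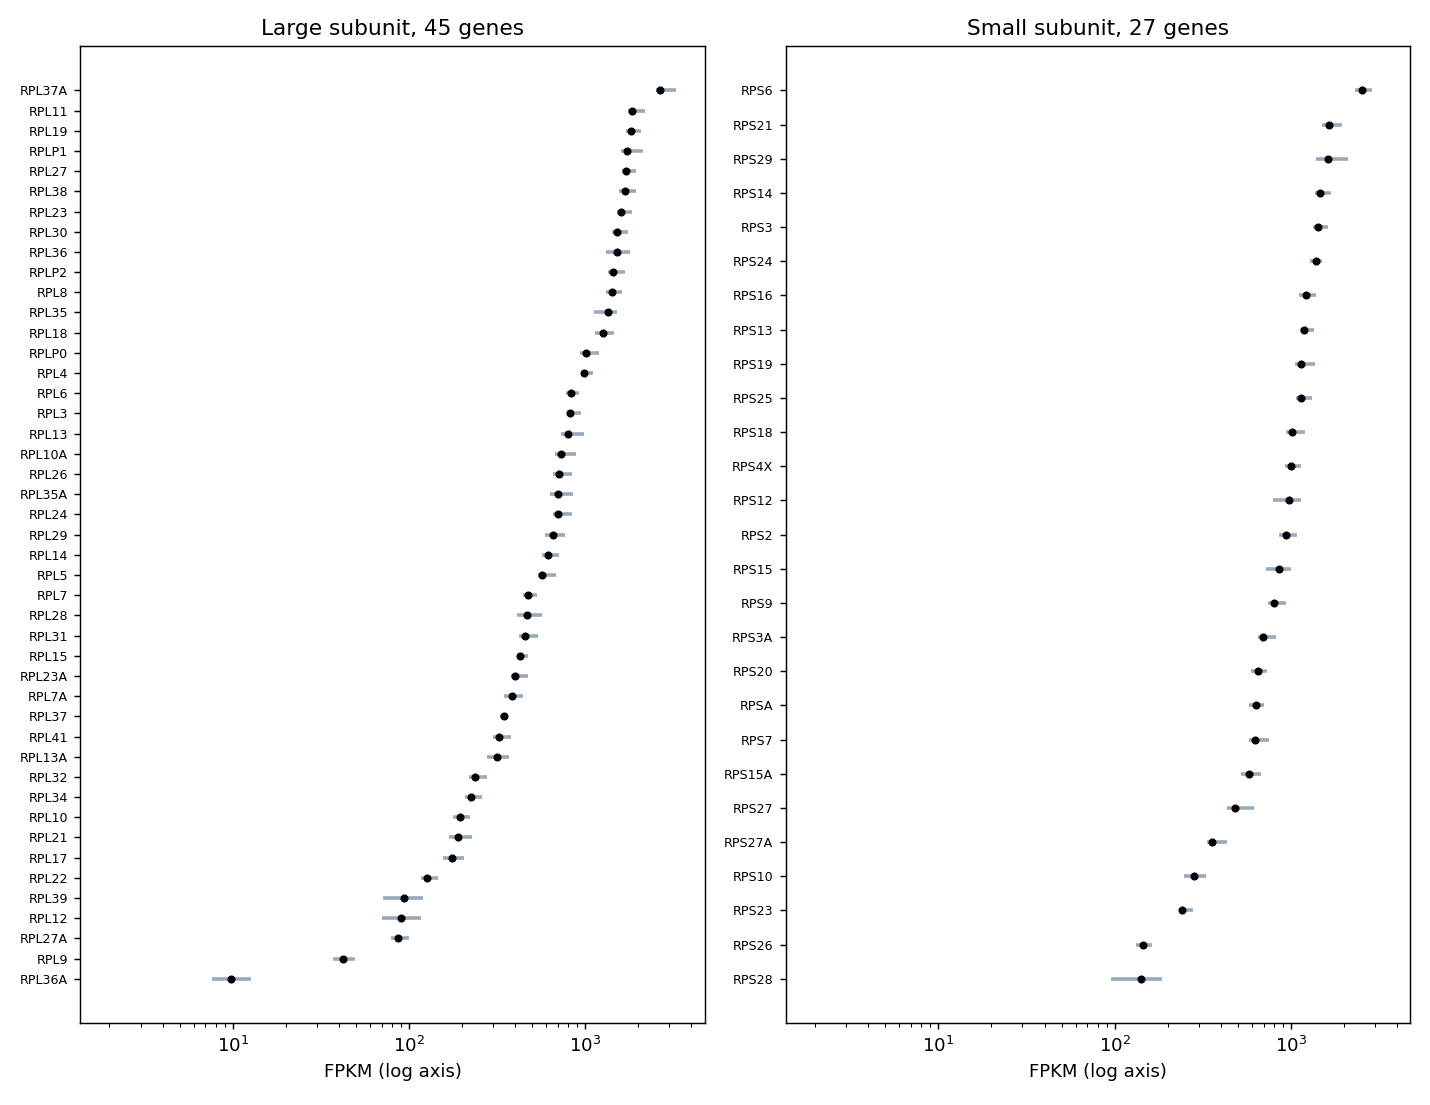
Mean FPKM (points, log axis) and range over 17 libraries (bars) of 45 large-subunit and 27 small-subunit mRNAs, ordered by mean. RPL37A and RPS6 are highest at 2670 and 2535 FPKM, and RPL36A stands alone at 9.84 FPKM.

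Members differed in how steady they were across the libraries. The smallest range of log2(FPKM + 1) was that of RPL37 (0.14), followed by RPS24 and RPL15 (both 0.22). RPL37, whose mRNA was at 329 to 362 FPKM in every library, was the steadiest of the 77. Among the largest ranges were those of RPS28 (0.95) and RPL39 (0.75). RPS28 was at 95.9 FPKM in replicate 1 of 25 µg/ml at 12 h and at 163.3 FPKM in replicate 2 of the same group. At 24 h the 25 µg/ml replicates stood at 186.2 and 104.7 FPKM. Duplicates of RPS28 thus differed by most of its whole range, and no comparison below called it. The median SD between libraries of a group was 0.085 on the log2 scale over the members and 0.072 over all genes tested.

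Some members share sequence with other rows of the table, and for these a level or a change can move between rows. A row named as a pseudogene or near-identical copy of a member was present for 17 of the 77. RPL13AP5 was listed at a mean of 1986 FPKM against 316.3 FPKM for RPL13A. RPSAP58 was at 889.8 FPKM against 631.6 for RPSA, and RPL21P28 at 496.9 against 189.3 for RPL21. In these 3 families the copies held 86.6%, 60.6% and 72.4% of the summed FPKM. RPL36A shares its locus with the readthrough gene RPL36A-HNRNPH2, which stood at 28.2 to 37.6 FPKM. How fragments were divided among such rows is not given in the sources used here, and these members are uncertain for that reason.

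One library stood apart for the whole set. In replicate 1 of 12.5 µg/ml at 6 h, 76 of 77 members were above their mean over all libraries, and the median member was 0.22 above it on the log2 scale. In the other 16 libraries the median member lay between -0.084 and 0.064. Mitochondrial ribosomal protein mRNAs, which encode the separate ribosome of that organelle, were also raised in that library, with a median of 0.18. Deviations from the mean library followed gene length there (Spearman correlation -0.58 across genes, against -0.096 to 0.31 elsewhere), and members are short, with a median transcript length of 750.5 bases against 2444 for all genes tested. After subtraction of each library's trends with GC content and length, the median member in that library was 0.085 above the mean. In replicate 2 of 25 µg/ml at 6 h, 3 of 77 members were above their mean. The part of length in the differences between groups was not tested beyond that correction. Relative depth of the libraries ranged from 0.671 to 1.0 of the deepest, the absolute depth is unknown, and FPKM sums ranged from 504362 to 557390.

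**Figure D2:**
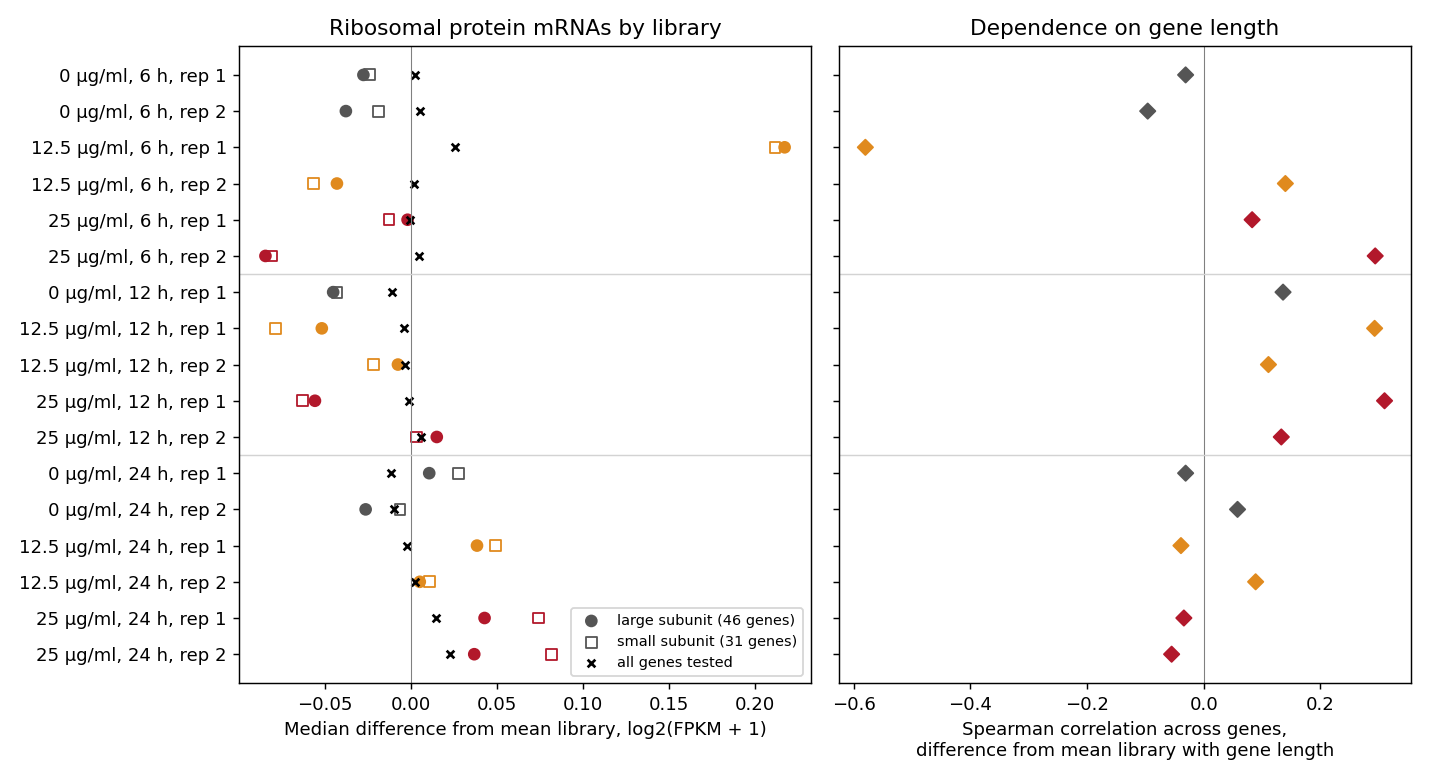
Left, median difference of large-subunit (circles), small-subunit (squares) and all tested genes (crosses) from the mean library, on log2(FPKM + 1), for each of 17 libraries (grey 0, orange 12.5, red 25 µg/ml). Right, the Spearman correlation across genes between that difference and gene length; replicate 1 of 12.5 µg/ml at 6 h is extreme in both panels, at 0.22 and -0.58.

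The map of 72 members by library shows the same pattern gene by gene. Most rows are near their mean in most columns, and the large and small subunit move together. RPL39, RPL12, RPL36A and RPS28 depart from the rest of the set in several libraries.

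**Figure D3:**
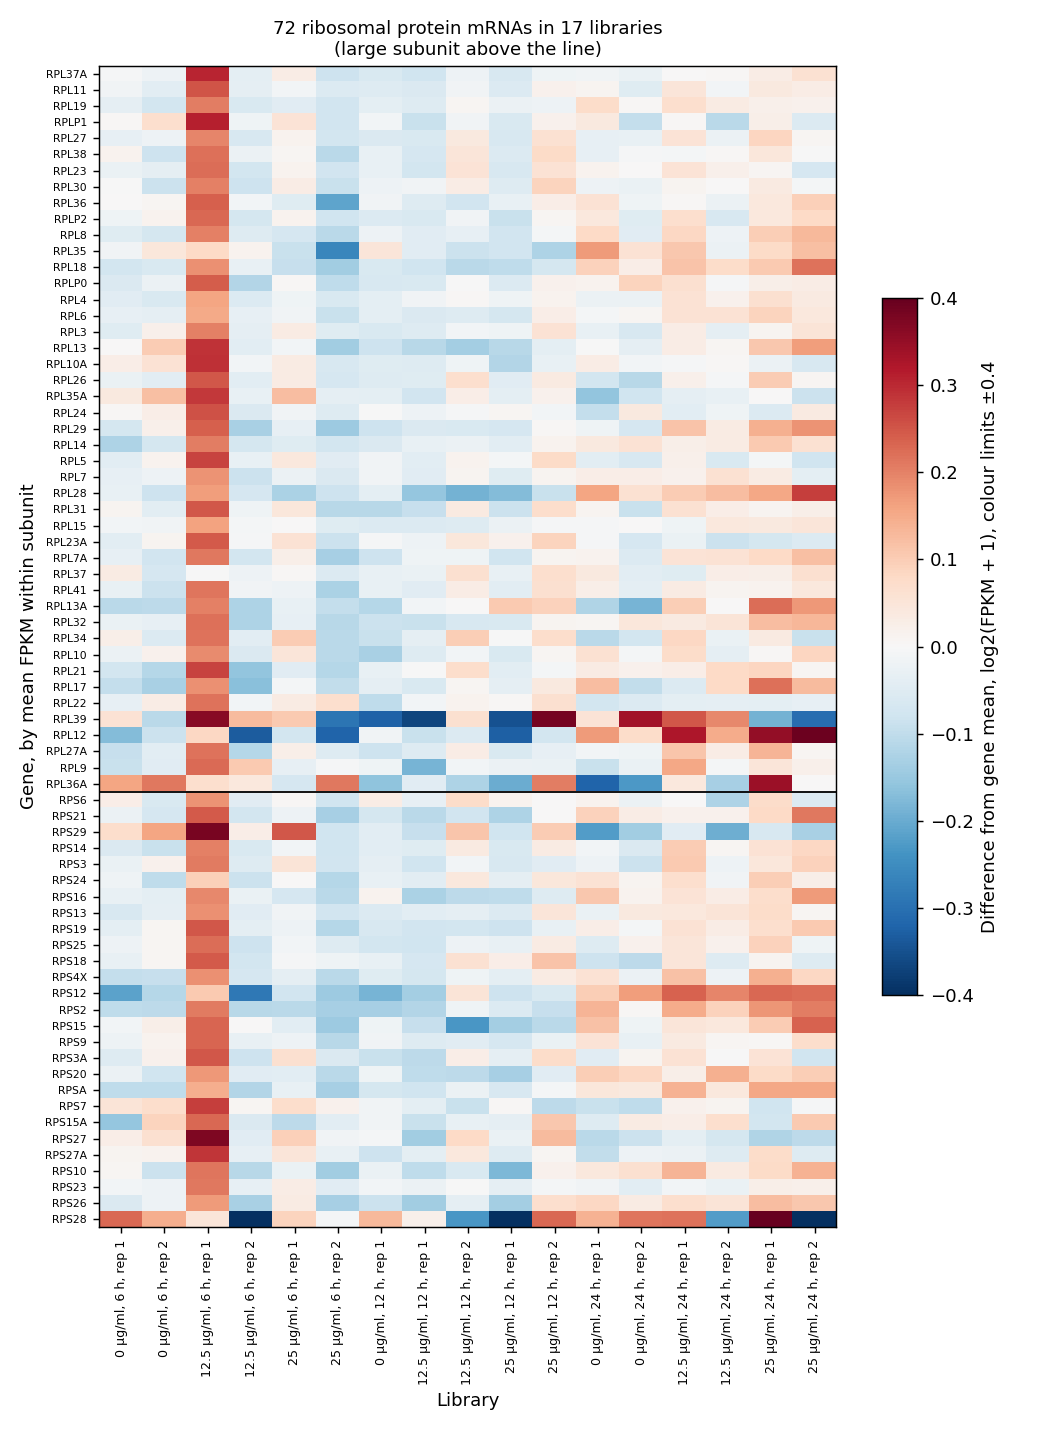
Difference of each of 72 mRNAs (rows, large subunit above the line, by mean FPKM) from its mean over 17 libraries (columns), on log2(FPKM + 1), with colours limited to ±0.4. The column of 12.5 µg/ml at 6 h, replicate 1, is raised in nearly every row.

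T cell identity was checked with markers. CD3D, CD3E and LCK were at means of 547, 340 and 316 FPKM, and the summed level of 10 T cell markers was 1680 to 1910 FPKM in every library. The 5 B cell markers summed to 33.6 to 48.6 FPKM, nearly all of it CD79A, and MS4A1 and PAX5 were near 0. The 5 myeloid markers summed to at most 0.544 FPKM and the 5 fibroblast and epithelial markers to at most 0.418, with S100A8, COL1A2, EPCAM and KRT19 listed at 0 throughout.

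At 25 µg/ml, averaged over 6, 12 and 24 h, 1 of the 77 ribosomal protein mRNAs rose and none fell. Among all genes tested in this comparison, 5.47% rose, 4.0% fell and 9.47% were called in all (adjusted p under 0.05, limma with Benjamini-Hochberg adjustment over 12015 genes). The median member changed by 0.022 on the log2(FPKM + 1) scale, against 0.015 for all genes, and 54 members were above 0. The large-subunit median was 0.023 and the small-subunit median 0.021. Centring libraries on their medians turned the member median to -0.005 and that of all genes to -0.012. The GC and length correction gave 0.027 for members and 0 for all genes, and quantile normalization 0.030 and 0.002. For members, the libraries of lane 5 alone, which cover 6 and 12 h, gave -0.010. Those of lane 4, which cover 6 and 24 h, gave 0.044, so these values differ in time as well as lane. In bulk RNA, fewer cells and less RNA per cell cannot be told apart.

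The mRNA that rose was RPL13A, a large-subunit protein that can also leave the ribosome and, in the GAIT complex of interferon-treated myeloid cells, silence selected mRNAs. At 6 h its level was 292.5 and 292.8 FPKM untreated, 362.8 and 288.9 at 12.5 µg/ml, and 308.4 and 295.0 at 25 µg/ml. At 12 h it was 290.8 FPKM in the single untreated library, 312.7 and 315.6 at 12.5 µg/ml, and 338.7 and 335.9 at 25 µg/ml. At 24 h it was 289.8 and 277.1 FPKM untreated, 337.3 and 315.3 at 12.5 µg/ml, and 368.1 and 355.5 at 25 µg/ml. All 6 libraries at 25 µg/ml lay above all 5 untreated ones, a separation that 2.98% of all tested genes showed upwards and 2.31% downwards. No other member showed it in either direction. The change over all times was 0.20 ± 0.05 (SE), with an adjusted p of 0.0313 in limma.

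The call on RPL13A lay near the threshold and rested on its own row. Within lane 4 the change was 0.21 and within lane 5 it was 0.11, neither called (adjusted p 0.134 and 0.151 in limma), and it was 0.13 without the 24 h libraries (adjusted p 0.493). Lane 4 held libraries of 6 and 24 h and lane 5 those of 6 and 12 h, so the lane values also differ in time. With the pseudogene rows of RPL13A added to it, the change over all times was 0.089 (adjusted p 0.287 in limma). Leaving out any 1 of 11 libraries, all of them untreated or at 25 µg/ml, also ended the call, at adjusted p-values from 0.0534 to 0.0770, while leaving out either 12.5 µg/ml library of 6 h lowered the adjusted p.

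Some members came close without passing. RPL35, which lies near the exit of the nascent chain tunnel, changed by -0.12 (adjusted p 0.107 in limma). RPL22, which is needed for the development of alpha-beta T cells in mice and is lost by mutation in some T cell leukaemias, changed by 0.072 (adjusted p 0.246 in limma). For both, the untreated and the 25 µg/ml ranges overlapped.

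Members with known roles outside the ribosome or upstream of it stayed close to 0 at 25 µg/ml over all times. RPS6 changed by -0.008 ± 0.051 (SE). RPL5, RPL11 and RPL26, which act on MDM2 or p53, changed by 0.024, 0.027 and 0.070. RPL10, which joins the large subunit late and is mutated in some T cell leukaemias, changed by 0.033. RPS14 and RPS19, whose loss underlies inherited or acquired anaemias, changed by 0.054 and 0.011. The stalk proteins RPLP0, RPLP1 and RPLP2 changed by 0.004, -0.014 and 0.016, RPS27A, made as a ubiquitin fusion, by 0.043, and RPL3, next to the peptidyl transferase centre, by 0.055. None of these passed the test, and each change was smaller than 2 of its standard errors.

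**Figure D4:**
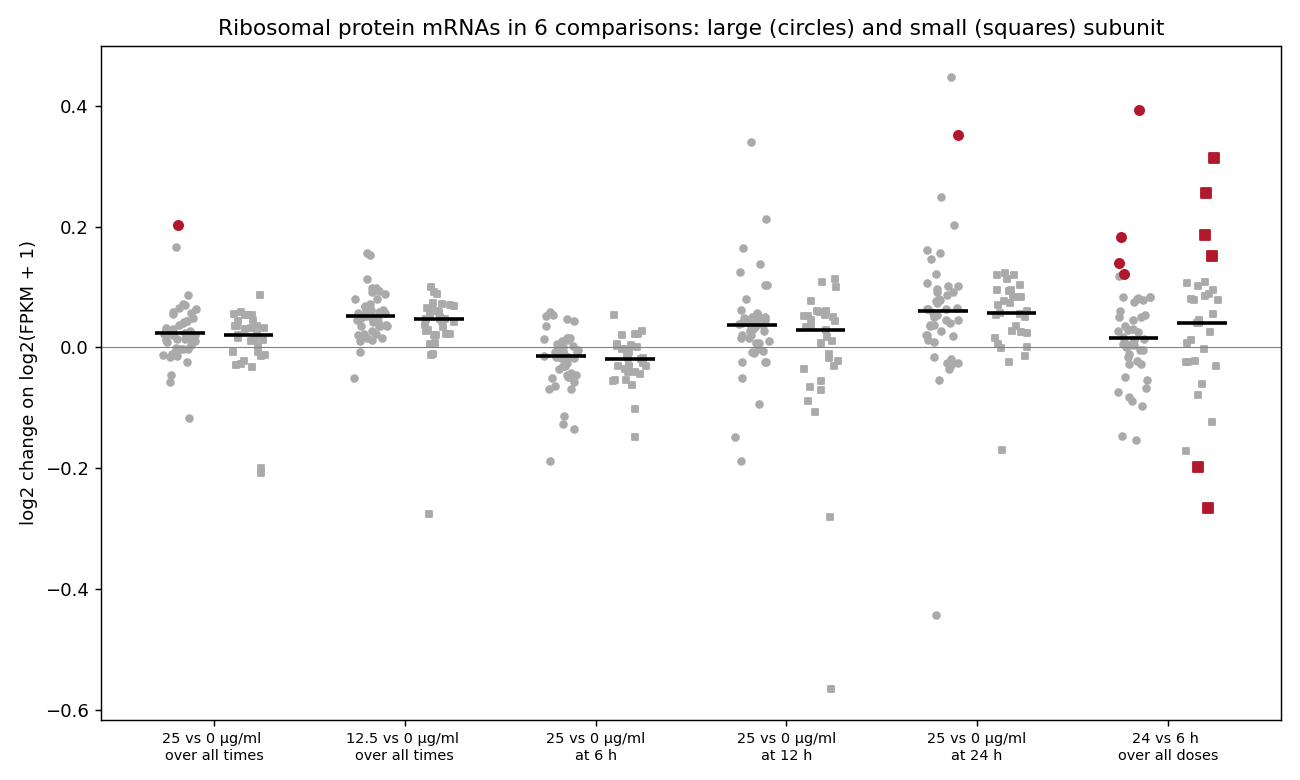
Change of each large-subunit (circles) and small-subunit (squares) mRNA on log2(FPKM + 1) in 6 comparisons, with the median of each subunit as a bar and called members (adjusted p under 0.05 in limma) in red. Called members number 1, 0, 0, 0, 1 and 10 from left to right.

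At 12.5 µg/ml over all times no ribosomal protein mRNA was called, while 0.166% of all genes rose, 0.117% fell and 0.283% were called in all. At an unadjusted p under 0.05 in limma there were 2 of 77 members, both higher, against 1315 of all 12015 genes. The median member changed by 0.049 against 0.005 for all genes, and 72 of 77 were above 0. The smallest p-values belonged to RPL13A (0.15, adjusted p 0.279 in limma), RPL9 (0.094), RPL22 (0.080) and RPL34 (0.11).

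This upward shift at 12.5 µg/ml came with 1 library. By time, the member median was 0.107 at 6 h, with 75 of 77 members positive, and 0.014 at 12 h and 0.030 at 24 h. Without replicate 1 of 12.5 µg/ml at 6 h, the library that stood apart, the median over all times was 0.006. Without replicate 2 of the same group it was 0.096, against 0.008 for all genes. Within lane 4, which held replicate 1 and covers 6 and 24 h, the median was 0.14. Within lane 5, which covers 6 and 12 h, it was -0.013. The 12.5 and 25 µg/ml comparisons share their untreated libraries.

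At single times, 25 µg/ml was compared with the untreated libraries of that time. At 6 h no member was called, while 0.0583% of all genes rose, 0.166% fell and 0.225% were called in all. In the set, 1 of 77 members had an unadjusted p under 0.05 in limma, against 1239 of all 12015 genes. The median member changed by -0.016 against -0.004 for all genes. The smallest p-values were those of RPL35 (-0.19, adjusted p 0.362 in limma), RPL36 (-0.13), RPL13 (-0.13) and RPS15 (-0.10). RPL35 was at 1338 and 1394 FPKM without ILT3.Fc and at 1272 and 1129 FPKM with 25 µg/ml, without overlap. The sign of the 6 h median depended on the library: it was 0.032 without replicate 2 of 25 µg/ml, the library in which 3 of 77 members were above their mean, and 0.008 after the GC and length correction.

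At 12 h no member was called, while 0.0333% of all genes rose, 0.0166% fell and 0.0499% were called in all. The comparison had 1 untreated library, which was assumed to vary like the other groups. In limma, 1 of 77 members had an unadjusted p under 0.05, against 1034 of all 12015 genes. RPL13A changed by 0.21, RPL22 by 0.14 and RPL35 by -0.15, each with an adjusted p of at least 0.600. The median member changed by 0.034 against 0.014 for all genes, and by -0.006 without replicate 2 of 25 µg/ml at 12 h.

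At 24 h, where 10.7% of all genes rose, 5.76% fell and 16.5% were called in all, 1 of 77 members rose and none fell. This was RPL13A, by 0.35 ± 0.08 (SE, adjusted p 0.0160 in limma). With its pseudogene rows added the change was 0.20 (adjusted p 0.105). The call also ended without either 25 µg/ml library (adjusted p 0.0594 and 0.0696), without replicate 2 of the untreated cells (0.117), and in a fit of the compared groups alone (0.0761).

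The set as a whole leaned upwards at 24 h, as did the other genes. The median member changed by 0.057 and 65 of 77 were above 0, against a median of 0.036 for all genes. After centring on library medians the member median was 0.016 against -0.005 for all genes. The GC and length correction gave 0.048 against 0.002, and quantile normalization 0.038 against 0.003. Deviations from the mean library correlated with GC content at 0.135 and 0.577 (Spearman) in replicates 1 and 2 of 25 µg/ml. In the untreated libraries of 24 h these correlations were 0.026 and -0.373. The part of GC content in the lean was not tested further. Both 25 µg/ml libraries lay above both untreated ones for 40 members and below them for 2, RPL10A and RPL39. Among all genes tested, 37.5% separated upwards in this way and 23.1% downwards. The large- and small-subunit medians were 0.060 and 0.057. The number of members called was larger, and still included RPL13A, without replicate 1 or without replicate 2 of 12.5 µg/ml at 6 h. These libraries enter this comparison only through the shared estimate of the spread, so the count of 1 depends on that estimate. The share of all genes called without them is not given here. All libraries of 24 h ran in 1 lane.

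RPL36A, the least abundant member, had the next smallest p at 24 h. It was at 7.61 and 8.17 FPKM untreated and at 12.6 and 9.78 FPKM at 25 µg/ml, a change of 0.45 ± 0.14 (SE, adjusted p 0.0507 in limma). The readthrough row RPL36A-HNRNPH2 moved the other way, from 35.1 and 33.6 FPKM to 29.3 and 28.2. The sum of both rows changed by -0.079 (adjusted p 0.496). RPL29 changed by 0.20 (adjusted p 0.164 in limma), from 645.2 and 622.8 FPKM to 720.3 and 738.7. RPL39, from 95.9 and 116.8 FPKM to 80.8 and 74.6, changed by -0.44 (adjusted p 0.194 in limma).

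Whether the response to 25 µg/ml differed between 24 h and 6 h was tested as an interaction. No member was called. Among all genes, the response was higher at 24 h for 2.35% and lower for 0.949%, or 3.30% in all. In limma, 3 of 77 members had an unadjusted p under 0.05, all with a larger change at 24 h, against 2603 of all 12015 genes. The median difference between the responses was 0.073 over the members and 0.037 over all genes. For RPL13A the response at 24 h exceeded that at 6 h by 0.31 ± 0.12 (SE, adjusted p 0.155 in limma), so its time course is not resolved. Without replicate 1, or replicate 2, of 12.5 µg/ml at 6 h, some members were called, RPL13A among them. RPL13A was also the 1 member called with quantile normalization. The shares of all genes called in these fits are not given here.

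Time in culture was the comparison with most calls. Between 24 and 6 h, averaged over doses, 8 members rose and 2 fell, against 11.8% of all genes that rose and 13.4% that fell. The median member changed by 0.025 and the median gene by -0.001. In this fit the share of members called, 10 of 77, was below the 25.2% of all genes called in either direction. That order is stated for this fit alone, because the count of members depended on the setting. It was 28 with quantile normalization and 30 with the GC and length correction, and it also rose without replicate 1 of 12.5 µg/ml at 6 h. The shares of all genes called in those settings are not given here. Libraries of 24 h all ran in lane 4, while those of 6 h were split between lanes. Within lane 4 alone the member median was -0.033. There each dose at 6 h had 1 library, and that of 12.5 µg/ml was replicate 1, the library that stood apart. All values within lane 4 for this comparison rest on it. Without that library, and with both lanes, the member median was 0.068. With lane as a covariate, which the 6 h libraries in both lanes allow, the median was also -0.033, against -0.001 for all genes. In that fit 3 members rose and 4 fell, of which 4 were among the 10. The share of all genes called with lane as a covariate is not given here, so these counts are not read as high or low. A lane effect and the deviation of that library were not tested apart.

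Among the small-subunit proteins that rose was RPS12, a protein of the beak. It had a lowest value of 795.1 FPKM at 6 h, a median of 885 and a highest of 1041, against 1036, 1119 and 1140 at 24 h. The groups overlapped through 1 library at each time, replicate 1 of 12.5 µg/ml at 6 h and replicate 1 of the untreated cells at 24 h, and the change was 0.31 ± 0.06 (SE, adjusted p 0.00374 in limma). The rise was of similar size at each dose, at 0.30 in untreated cells, 0.30 with 12.5 µg/ml and 0.34 with 25 µg/ml. Within lane 4 it was 0.25.

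RPS2 and RPSA rose less. RPS2, which sits at the mRNA entry channel, had a median of 873.1 FPKM at 6 h (856.8 to 1085) and 1038 at 24 h (943.8 to 1084), a change of 0.19 ± 0.05 (SE, adjusted p 0.0181 in limma). RPSA, also known as the laminin receptor, had a median of 587.3 FPKM at 6 h (574.9 to 697.1) and 672.1 at 24 h (646.9 to 702.2), a change of 0.15 ± 0.04 (SE, adjusted p 0.0227 in limma). For both, 5 of the 6 libraries at 6 h lay below every library at 24 h. Within lane 4 neither was called, with changes of 0.13 and 0.091 (adjusted p 0.0739 and 0.0903 in limma). Most of the FPKM of the RPSA family sits in the RPSAP58 row, and with the pseudogene rows added RPSA changed by 0.16 (adjusted p 0.0255).

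In the large subunit, RPL12, a protein at the base of the stalk, rose most. Its 6 h libraries had a lowest value of 70.4 FPKM, a median of 81.2 and a highest of 94.2, and its 24 h libraries had 93.7, 105.8 and 116.8. The groups overlapped only at their edges, and the change was 0.39 ± 0.07 (SE, adjusted p 0.00359 in limma). It was 0.25 in untreated cells, 0.36 with 12.5 µg/ml and 0.57 with 25 µg/ml, and 0.30 within lane 4. The difference between the 25 µg/ml and untreated time courses was not called.

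RPL28, RPL18 and RPL35 rose by smaller amounts. RPL28, a protein of the large subunit that bacteria lack, had medians of 443.6 FPKM at 6 h (428.4 to 525.6) and 515.0 at 24 h (487.3 to 566.1), a change of 0.18 ± 0.04 (SE, adjusted p 0.00936 in limma). RPL18 had medians of 1203 FPKM at 6 h (1144 to 1430) and 1349 at 24 h (1283 to 1464), a change of 0.14 ± 0.04 (SE, adjusted p 0.0201 in limma). RPL35 had medians of 1351 FPKM (1129 to 1428) and 1441 (1330 to 1521), with wide overlap, and changed by 0.12 ± 0.04 (SE, adjusted p 0.0411 in limma). Within lane 4 these changes were 0.14, 0.099 and 0.093, and none was called (adjusted p 0.0672, 0.119 and 0.200 in limma).

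RPS29, a zinc-binding protein of the small-subunit head, fell. It had a lowest value of 1527 FPKM at 6 h, a median of 1748 and a highest of 2103, against 1383, 1472 and 1565 at 24 h. The groups overlapped at 1 library of 6 h, and the change was -0.27 ± 0.08 (SE, adjusted p 0.0257 in limma). Within lane 4 its change was -0.37, and it was called there too (adjusted p 0.0144 in limma). The call ended in 6 of 32 alternatives, with adjusted p up to 0.0696 in limma. These were no filter on low values (0.0666) and leaving out replicate 1 of 25 µg/ml (0.0686) or replicate 2 of the untreated cells (0.0676) at 6 h, or, at 24 h, replicate 1 of the untreated cells (0.0667), replicate 2 of 12.5 µg/ml (0.0696) or replicate 2 of 25 µg/ml (0.0606).

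RPL22 was not called (-0.097, adjusted p 0.0611 in limma), yet its 24 h libraries (119.5 to 122.93 FPKM) all lay below its 6 h libraries (122.94 to 146.6), as did those of 4.13% of all genes. The reverse separation, with all 24 h libraries above all 6 h libraries, was shown by 1 member and by 3.37% of all genes. RPL22L1, the paralog of RPL22, at a mean of 13.6 FPKM, changed by -0.16 (adjusted p 0.110 in limma). RPS6 changed by -0.023 and RPL11 by -0.004 between these times.

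**Figure D5:**
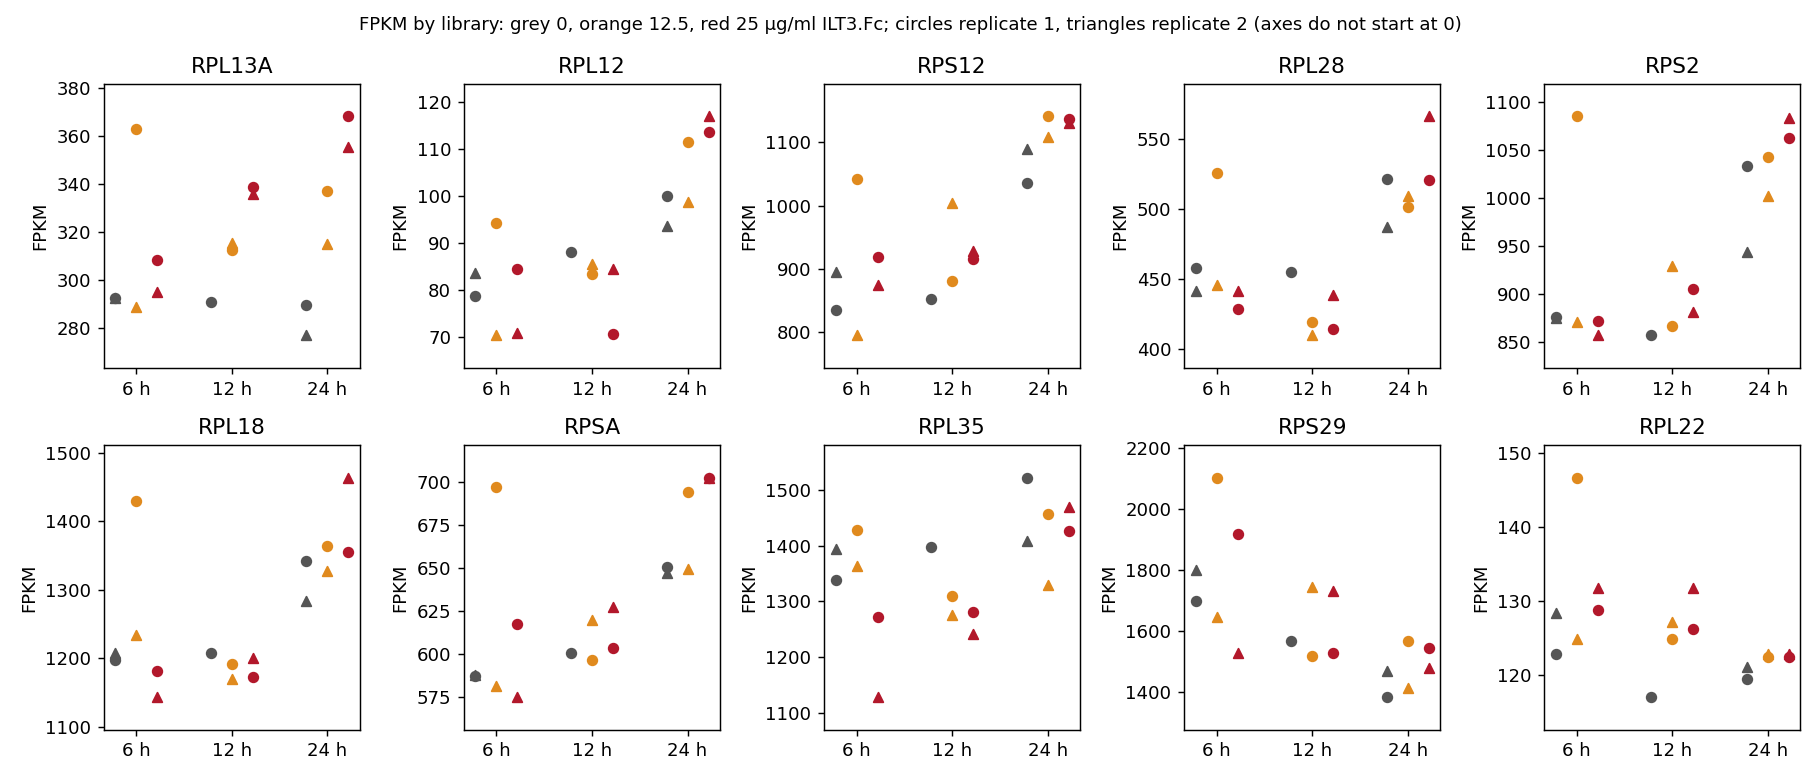
FPKM in each of 17 libraries of 9 members called in a comparison and of RPL22, by time and dose (grey 0, orange 12.5, red 25 µg/ml; circles replicate 1, triangles replicate 2; axes do not start at 0). RPL13A separates 25 from 0 µg/ml at 6, 12 and 24 h, narrowly at 6 h and against 1 untreated library at 12 h. RPS12 is higher at 24 h than at 6 h at every dose.

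The number of members called between 24 and 6 h depended strongly on replicate 1 of 12.5 µg/ml at 6 h. Without it the number rose, with all 10 still called, and the median member changed by 0.068 against -0.003 for all genes. Without replicate 2 of that group the number also rose, and these medians were -0.022 and -0.003. The GC and length correction gave 30 calls, 24 higher and 6 lower, which also included all 10. Its medians were 0.037 and 0.003, and the share of all genes called in that fit is not given here. Leaving out replicate 1 of the untreated cells or of 12.5 µg/ml at 24 h lowered the number. By dose, the median member changed by 0.021 between 6 and 24 h in untreated cells, by -0.042 at 12.5 µg/ml and by 0.086 at 25 µg/ml. RPS12 and RPL12 kept their calls in every alternative that gave a value. Of 32 alternatives each, the call ended in 2 for RPL28, 4 for RPS2, 10 for RPL18, 10 for RPSA and 17 for RPL35.

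Members with and without the pyrimidine run at their start were then set side by side. At 25 µg/ml over all times the median of the 46 with it was 0.022 and that of the 16 without it 0.034. At 24 h the medians were 0.058 and 0.076, and between 24 and 6 h they were 0.016 and 0.042. Of the members called between 24 and 6 h, 6 held the run and 1, RPS29, did not, while the others, RPS2 among them, were not in the table of starts. RPL13A held it.

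Genes that belong with the set by function were described from lists. Of 9 paralogs of members, 7 were tested and none was called, at 25 µg/ml over all times or between 24 and 6 h. RPL39L and RPL22L1 changed by -0.13 and -0.14 at 25 µg/ml. RPL36AL, at 458.2 FPKM, was far more abundant than RPL36A. FAU, a fusion of a ubiquitin-like protein with a small-subunit protein, and GNB2L1, the scaffold protein RACK1, were not called in either comparison either, with changes of -0.022 and -0.002 at 25 µg/ml.

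Among 25 other TOP mRNAs, 1 rose and 1 fell at 25 µg/ml over all times, where 5.47% of all genes rose and 4.0% fell. EIF4B, an activator of the helicase EIF4A and a substrate of S6 kinase, rose by 0.12 (adjusted p 0.0198 in limma), and the helicase EIF4A2 fell by 0.10 (adjusted p 0.0450 in limma). Between 24 and 6 h, where 11.8% of all genes rose and 13.4% fell, 3 rose and 2 fell. The elongation factor EEF2 (0.15), the poly(A)-binding protein PABPC1 (0.13) and CCNI (0.081) rose, and HNRNPA1 (-0.31) and VIM (-0.15) fell. Of 8 host genes of small nucleolar RNAs that are TOP transcripts, none was called at 25 µg/ml over all times and 5 fell between 24 and 6 h, with a list median of -0.17 against -0.001 for all genes. They were SNHG1 (-0.31), SNHG5 (-0.18), SNHG8 (-0.20), SNHG12 (-0.36) and EPB41L4A-AS1 (-0.17).

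Of 20 tested genes of mTORC1 and its effectors, 3 rose at 25 µg/ml over all times and none fell, against 5.47% and 4.0% of all genes. RPS6KB1, the S6 kinase that phosphorylates RPS6, rose by 0.24 ± 0.04 (SE, adjusted p 0.00305 in limma). TSC1 and SESN1, both negative regulators of mTORC1, rose by 0.18 and 0.14. Between 24 and 6 h 4 rose, SESN2, DDIT4, RPS6KB2 and EIF4EBP1, and none fell, against 11.8% and 13.4% of all genes. Of 13 chaperones and export factors of ribosomal proteins and subunits, HEATR3 and PDCD2L rose by 0.13 each at 25 µg/ml and the exportin XPO1 fell by 0.14. HEATR3, TSR2 and LTV1 fell between 24 and 6 h.

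The 76 mitochondrial ribosomal protein mRNAs gave a further comparison. At 25 µg/ml over all times none rose and 5 fell, against 5.47% and 4.0% of all genes, with a median of -0.024 against 0.022 for the cytoplasmic set. Between 24 and 6 h 6 rose and 4 fell, against 11.8% and 13.4% of all genes, with a median of -0.005. The difference between these 2 sets was not tested.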

How the data were processed

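Polyadenylated RNA of 17 Jurkat libraries was analysed. The authors deposited 1 table of FPKM values with a column per library (25593 lines, 45 repeated symbols, none of them a member). TopHat2 2.1.0 is listed in the submitters' processing notes. What quantified the genes, on which build, is not given in the sources used here. FPKM holds no read counts, so no count test was run. Relative depth came from the step between the lowest values of 6620 genes under 0.3 FPKM (tolerance 0.03 on the log2 scale).

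Rows averaging at least 1 FPKM were fitted on log2(FPKM + 1), which understates changes of low genes. limma 3.58.1 in R 4.3.3 fitted 9 group means with a variance trend (8 residual and 3 prior degrees of freedom). Two-sided p-values were adjusted by Benjamini-Hochberg over all 12015 genes, and the threshold was 0.05. The members, lists and tests were chosen with earlier results of these data known. Members were named if called, if among the 4 smallest p-values where fewer than 4 were called, if highest or lowest in level or range, or if on a fixed list. List genes were named from their smallest p-values, and RPL22L1 and RPL36AL with the paralogs. RPL10A, among the members that separated at 24 h, was chosen after its values were seen. All counts and medians cover the 77 members; some members, list genes and markers are not reported here by name or shown in figures of single genes.

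Gene length and GC content were taken from GENCODE v29 (11158 of 12015 genes, 92.9%, and all 77 members), and the correction was a loess curve of span 0.3. Same-numbered replicates did not deviate together: correlations across 28 pairs of groups were -0.183 to 0.128, so replicate numbers were not used to pair samples. In 10 simulations with 200 of 12015 genes changed, 66.6% of changes of 0.25 and 93.3% of 0.5 were recovered in the comparison of 25 with 0 µg/ml over all times (4.5% of calls false). At 24 h these were 26.9% and 78.6% (4.2% false), and between 24 and 6 h 75.4% and 94.6% (4.4% false). The noise was drawn independently for each gene, and the changed genes were drawn from all genes tested. These rates therefore leave out deviations that many genes of a library share, such as those with length, GC content or lane, and may not hold for the members.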

Additional observations from a re-analysis of the deposited data

How the results depend on the processing

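Over 34 alternatives, 92 results for named members gave 3026 values. Of these, 2879 kept their side of the threshold, 87 lost a call, 60 gained one and none reversed as a call. Changes that were not called could switch sign, as that of RPLP2 between 24 and 6 h did in 9 of 32 alternatives. At 25 µg/ml over all times, the 1 called member became 0 with no filter on low values, with median centring, in lane 4 or lane 5 alone, without the 12 h or the 24 h libraries, and with pseudogene rows added (chosen after seeing the data). It became 5 with quantile normalization and 2 with the GC and length correction plus replicate block. Leaving out single libraries gave 0 to 2. At 12.5 µg/ml, the count of 0 became 1 with that correction and block and 0 to 20 without single libraries, and the median of 0.049 became 0.14 in lane 4. At 24 h, the count of 1 became 2 with pseudocount 0.1 or a mean FPKM of at least 5, 4 with quantile normalization, 3 with the correction with or without block, and 0 in the groups compared alone or with pseudogene rows added. Without single libraries it was 0 to 5. Between 24 and 6 h, the count of 10 became 5 with no filter, 28 with quantile normalization, 30 with the correction, 32 with the correction and block, and 4 to 39 without single libraries. The interaction count of 0 became 1 with quantile normalization and 0 to 3 without single libraries. The counts at 6 h and 12 h were 0 throughout. Counts in this paragraph stand without the share of all genes called in the same setting. Except where a setting leaves out samples, the cause of these moves was not tested. The replicate block alone changed no count by over 1.5 times: it gave 1 call at 25 µg/ml over all times, 0 at 12.5 µg/ml, 0 at 6 and at 12 h, 1 at 24 h, 11 between 24 and 6 h and 0 for the interaction.

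Depth limits cannot be given, because FPKM holds no counts. Lane 5 holds no 24 h library, so 24 and 6 h were compared within lane 4 and with lane as a covariate. The covariate gave 7 calls among members, without the share of all genes beside them. The 12 h libraries all ran in lane 5, and 12 h was not tested against 6 h.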
